A study of Mus musculus with 8 samples.

Results

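Between the oligodendrocyte progenitor cell (OPC) and the myelinating oligodendrocyte (OL) lies a short stage of committed, newly formed and premyelinating cells, and 8 genes that mark it were followed here: *Gpr17*, *Enpp6*, *Bcas1*, *Itpr2*, *Bmp4*, *Neu4*, *Fyn* and *Tns3*. They were taken by symbol from the 23427 genes of the table, each matched a single entry, and all 8 passed the filter on low values. The cells were primary OPCs of wild type C57BL/6J mice, captured with an antibody against PDGFRα after the cortex of 3 pups had been dissociated (postnatal day 7) and expanded in a medium with PDGF-AA and CNTF. On Day 0 the cells were OPCs, and Day 1, Day 2 and Day 3 count the days after PDGF-AA was withdrawn and the thyroid hormone T3 (40 ng/mL) was added. Each day had 2 replicates, numbered 1 and 2 in the labels and described in the study's methods as independent, which gives 8 libraries from cultures without axons. The values are FPKM, fragments scaled to transcript length and to the mapped fragments of the library, made by the authors. No group was treated in any other way, so each comparison is one of time in culture after the change of medium.

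An OPC that stops dividing does not begin to make myelin at once. It first shuts off the receptor for PDGF and passes through a committed state in which GPR17, a G protein-coupled receptor, is abundant. It then becomes a newly formed, premyelinating cell that extends processes and takes up genes such as *Bcas1* and *Enpp6*, and these genes are known to decline again as the cell matures and myelin genes rise. The genes are known from tissue as markers of cells that are passing through, and so a culture that enters differentiation together can show them as a wave.

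All 8 genes had their highest mean on Day 1 or Day 2, and not at either end of the course. How many of all genes tested share this was not counted. The mean was highest on Day 1 for *Gpr17*, *Bmp4* and *Neu4* and on Day 2 for *Enpp6*, *Itpr2*, *Tns3*, *Bcas1* and *Fyn*, and in each of the 8 genes both Day 3 libraries were below both Day 2 libraries, an order that 21.8% of the genes tested also had. Levels at the highest day spanned a wide range on the FPKM scale, which is per length. The transcript lengths used for it are not given, so the order between genes is approximate. *Bcas1* stood at the top with a mean of 1465 FPKM, followed by *Fyn* at 554, *Enpp6* at 501, *Gpr17* at 451, *Tns3* at 335, *Itpr2* at 109, *Bmp4* at 72.2 and *Neu4* at 21.8. Of the neighbours in this order, *Fyn* and *Enpp6* overlapped in their replicates, and the others did not.

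**Figure D1:**
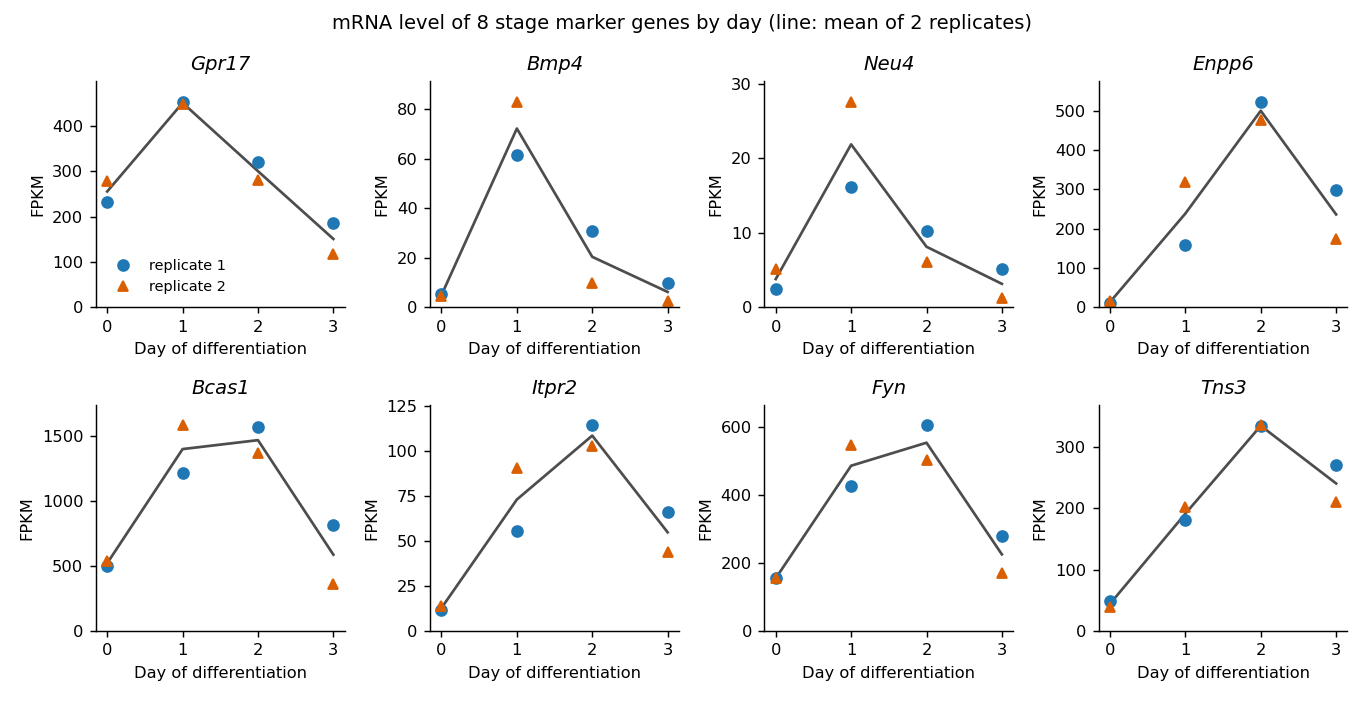
FPKM of the 8 genes (vertical axis, from 0, a scale for each panel) on Day 0 to Day 3 (horizontal axis), with a circle for replicate 1, a triangle for replicate 2 and a line through the mean of both. The top row begins with the genes whose mean was highest on Day 1 (*Gpr17*, *Bmp4*, *Neu4*), and the other panels rise to Day 2 and come down on Day 3.

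*Gpr17*, *Bmp4* and *Neu4* are grouped here as early by the day of their highest mean. Both Day 2 libraries were below both Day 1 libraries for each, as for 37.6% of the genes tested. None of these falls was called in the main fit. *Gpr17* encodes an orphan receptor related to the P2Y and cysteinyl leukotriene receptors and is known to hold back the maturation of OLs. *Gpr17* measured 232 and 279 FPKM on Day 0 (replicate 1 and replicate 2), then 454 and 449 (Day 1), 321 and 280 (Day 2) and finally 185 and 116 (Day 3). It was the member with the highest level in the OPCs relative to its own highest day (56.6%), and it was also the member that ended furthest below its start. The Day 3 mean of 151 ± 48.5 FPKM (SD, n = 2) was below the Day 0 mean of 256 ± 32.7.

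*Bmp4* encodes a secreted ligand of the bone morphogenetic protein (BMP) family, known to turn progenitors away from the OL fate. It measured 5.23 and 4.50 FPKM on Day 0, then 61.3 and 83.1 (Day 1), 30.9 and 9.79 (Day 2) and finally 9.66 and 2.62 (Day 3). It was thus near the bottom at both ends, and the Day 0 and Day 3 libraries overlapped. *Neu4* encodes a sialidase, an enzyme that removes sialic acid from glycans. It measured 2.46 and 5.06 FPKM on Day 0, then 16.1 and 27.6 (Day 1), 10.2 and 6.00 (Day 2) and finally 5.09 and 1.16 (Day 3). *Neu4* had the lowest mean of the 8 genes on every day, and its Day 0 and Day 3 libraries overlapped as well. At the depth of these libraries the value of 1.16 FPKM corresponds to about 5.0 fragments for the longest annotated transcript and 1.9 for the shortest, and the value of 2.62 FPKM of *Bmp4* to about 5.1 and 0.6. The values for the shortest transcripts are under the 3 fragments taken as measurable. The same holds for *Bmp4* on Day 0, at about 2.1 and 1.4 fragments for the shortest transcript (16.4 and 11.3 for the longest). It also holds for *Bmp4* in Day 3 replicate 1, at about 2.7 (21.5 for the longest). The lowest points of both genes, and ratios that rest on them, are therefore imprecise.

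*Enpp6*, *Itpr2* and *Tns3* are grouped here as later. Both Day 2 libraries were above both Day 1 libraries for each, as they were for 15.4% of the genes tested. The rise at this step was called for *Tns3* alone. *Enpp6* encodes a choline-specific glycerophosphodiesterase of newly formed OLs. It measured 11.1 and 14.6 FPKM on Day 0, then 158 and 320 (Day 1), 524 and 477 (Day 2) and finally 299 and 174 (Day 3). Its mean on Day 2 was 39.0-fold that on Day 0, the widest range of the 8 genes, and in replicate 2 it went from percentile 55.9 of the 12208 genes tested on Day 0 to percentile 99.4 on Day 2. The Day 1 replicates differed about 2-fold, and the means of 239 ± 115 (SD, n = 2) on Day 1 and 236 ± 88.0 on Day 3 differed by less than the spread between replicates.

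*Itpr2* encodes an inositol trisphosphate receptor, a channel that releases calcium from the endoplasmic reticulum. It measured 11.7 and 13.7 FPKM on Day 0, then 55.4 and 90.8 (Day 1), 114 and 103 (Day 2) and finally 65.9 and 43.8 (Day 3). Day 3 stayed above Day 0 in both replicates and overlapped Day 1. *Tns3* encodes a tensin, a protein of adhesion sites that links integrins to actin. It measured 49.0 and 39.0 FPKM on Day 0, then 181 and 201 (Day 1), 334 and 335 (Day 2) and finally 270 and 211 (Day 3). *Tns3* kept the largest share of its highest level to the end, 71.9% on Day 3 against 8.5% to 50.5% for the other 7 genes.

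*Bcas1* and *Fyn* rose early and stayed up, with Day 1 and Day 2 libraries that overlapped. *Bcas1* encodes a protein of newly formed and early myelinating OLs. It measured 499 and 539 FPKM on Day 0, then 1213 and 1579 (Day 1), 1566 and 1363 (Day 2) and finally 810 and 360 (Day 3). *Fyn* encodes a kinase of the *Src* family that acts in the contact of OLs with axons and in the local translation of myelin basic protein. It measured 154 and 155 FPKM on Day 0, then 427 and 546 (Day 1), 606 and 503 (Day 2) and finally 279 and 171 (Day 3). Both genes were highest on Day 2 in replicate 1 and on Day 1 in replicate 2, so the day of the highest level is open between these days for *Bcas1* and *Fyn*.

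**Figure D2:**
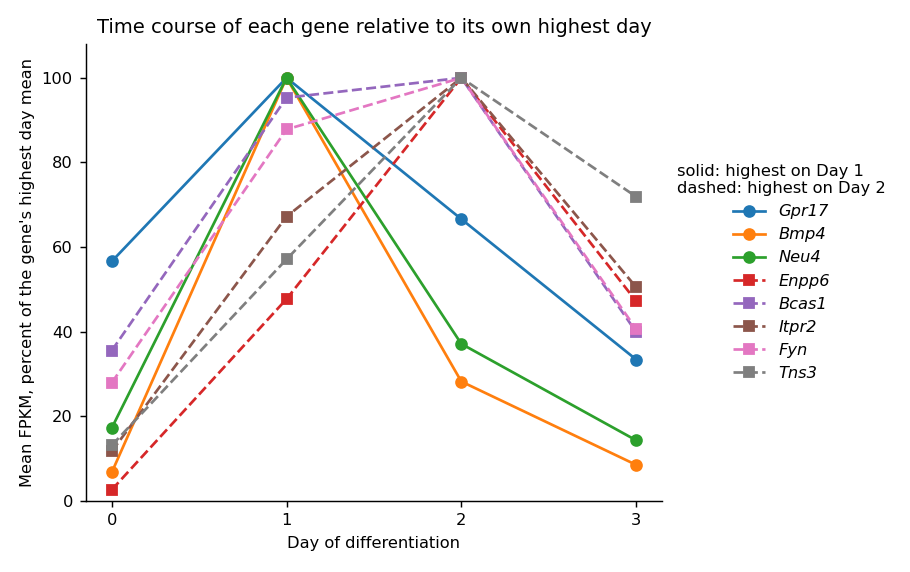
Mean FPKM of each gene as a percentage of its own highest day mean (vertical axis) by day (horizontal axis), means of 2 replicates without error bars, with solid lines for genes highest on Day 1 and dashed lines for genes highest on Day 2. On Day 2 *Gpr17*, *Neu4* and *Bmp4* stood at 66.6%, 37.1% and 28.2%, and on Day 1 *Enpp6*, *Tns3* and *Itpr2* stood at 47.7%, 57.1% and 67.2%.

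The first question was what happened within a day of the change of medium. All 8 genes rose from Day 0 to Day 1 in a limma fit on log2(FPKM + 1) with all 8 libraries, at a Benjamini-Hochberg adjusted p under 0.05 over 12208 genes tested (those that reached an FPKM of 1 in 2 or more libraries). Of all genes tested, 5.04% were called higher at this step. The log2 fold change, which on this scale understates the change of low genes, was 4.04 for *Enpp6* (SE 0.35, adjusted p = 0.000752) and 3.63 for *Bmp4* (SE 0.58, adjusted p = 0.00507). These were the first and the second largest of the 12208 estimates. The estimate of *Bmp4* rests on Day 0 values of about 2.1 and 1.4 fragments for its shortest transcript (16.4 and 11.3 for the longest). Its size and rank are therefore imprecise. *Itpr2* (2.40, adjusted p = 0.00128), *Neu4* (2.27, 0.0274) and *Tns3* (2.10, 0.000748) came at ranks 36, 44 and 61. *Fyn* (1.63, adjusted p = 0.00305), *Bcas1* (1.41, 0.0271) and *Gpr17* (0.82, 0.0401) came at ranks 161, 246 and 797. The median of the 8 genes was 2.19, against -0.07 for all genes tested.

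The rise on Day 1 was seen in each replicate number. Within replicate 1 and replicate 2, *Enpp6* on Day 1 was 14.3 and 21.9 times its level on Day 0, *Bmp4* 11.7 and 18.5 times, *Neu4* 6.55 and 5.45 times and *Gpr17* 1.95 and 1.61 times. The ratios of *Bmp4* rest on the few Day 0 fragments given above. Both Day 1 libraries were above both Day 0 libraries for 8 of 8 genes, an order that 24.3% of all genes tested also had. The calls of *Gpr17*, *Bcas1* and *Neu4* were lost without any 1 of the 4 Day 0 and Day 1 libraries, and that of *Bmp4* without Day 0 replicate 2 as well, which left 4 to 5 genes called. The call of *Gpr17* was also lost without either Day 2 library, and those of *Gpr17* and *Neu4* with a pseudocount of 0.1. The calls of *Enpp6*, *Itpr2*, *Fyn* and *Tns3* held without each library.

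From Day 1 to Day 2 a single gene of the 8 was called. *Tns3* rose (log2 fold change 0.81, adjusted p = 0.0395), where 2.16% of all genes were called higher. This call was lost without any 1 of the 6 libraries of Day 0, Day 1 and Day 2. *Enpp6* and *Itpr2* had estimates of 1.15 and 0.61 (limma adjusted p = 0.107 and 0.226), and *Gpr17*, *Bmp4* and *Neu4* of -0.59, -1.96 and -1.32 (adjusted p = 0.159, 0.103 and 0.199). *Bcas1* and *Fyn* had 0.08 and 0.19, with 95% intervals from -0.68 to 0.84 and from -0.34 to 0.73. No gene was called lower, where 1.73% of all genes were. With the replicate number as a block, *Bmp4* passed the threshold (adjusted p = 0.0436), in a fit that called 3.57% of all genes lower.

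The order of the libraries at this step carries no test. Both Day 2 libraries were above both Day 1 libraries for 3 genes (*Enpp6*, *Itpr2* and *Tns3*), as for 15.4% of all genes tested, and below them for 3 (*Gpr17*, *Bmp4* and *Neu4*), as for 37.6% of all genes, so the share of the 8 genes that were lower was at the level of all genes. The sizes differed between replicates. *Bmp4* on Day 2 was at 0.503 times its Day 1 level in replicate 1 and at 0.118 times in replicate 2, and *Enpp6* was at 3.32 and 1.49 times.

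From Day 2 to Day 3 every estimate was below 0, from -0.49 for *Tns3* to -1.58 for *Bmp4*, with a median of -1.21 against -0.02 for all genes. None of the 8 genes passed the threshold (limma adjusted p from 0.0702 to 0.32), in a comparison that called 0.0491% of all genes lower. At an unadjusted p under 0.05 all 8 were lower, as were 7.57% of all genes. Within replicate 1 and replicate 2, *Bcas1* on Day 3 was at 0.517 and 0.264 times its Day 2 level, *Fyn* at 0.461 and 0.340 times and *Tns3* at 0.809 and 0.628 times. With the replicate block *Fyn* passed (log2 fold change -1.33, adjusted p = 0.0405), where 0.36% of all genes were called lower, and without Day 3 replicate 1 *Gpr17*, *Bcas1* and *Fyn* did.

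**Figure D3:**
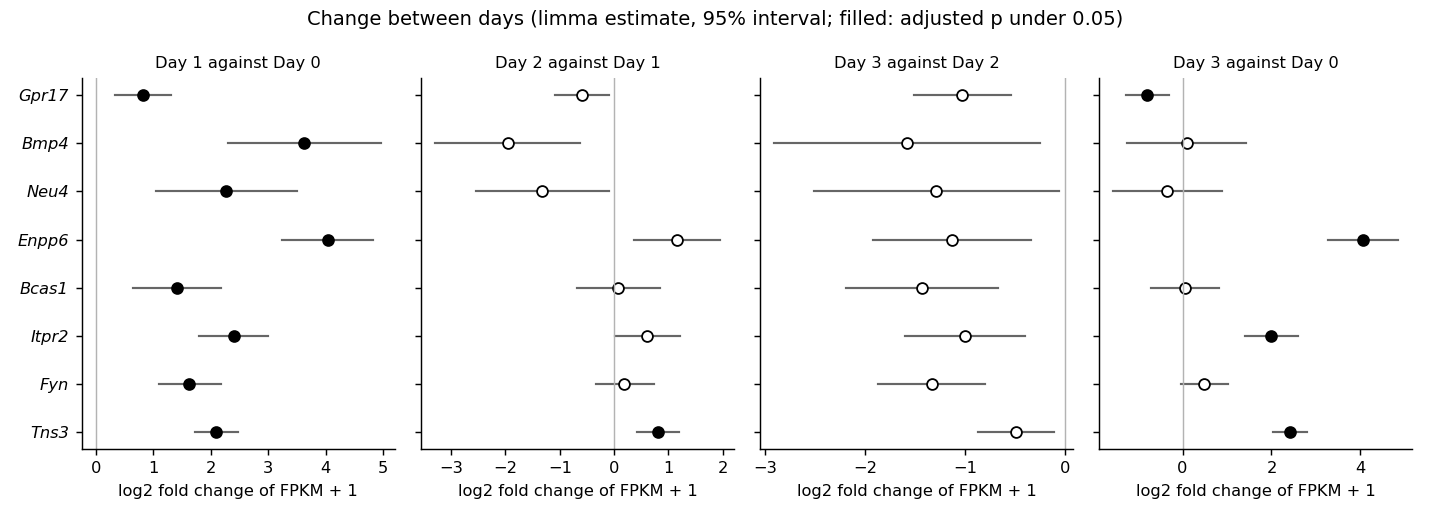
Estimated log2 fold change of FPKM + 1 (horizontal axis, a scale for each panel) with its 95% limma interval for the 8 genes (vertical axis), for the 3 steps between neighbouring days and for Day 3 against Day 0. Filled circles mark an adjusted p under 0.05, which all 8 genes had at the first step, *Tns3* alone at the second and none at the third.

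Days further apart were compared next. Against Day 0, the level on Day 2 was higher for 5 genes, where 9.4% of all genes were called higher. These were *Enpp6* (log2 fold change 5.19, adjusted p = 9.89e-05), *Itpr2* (3.0, 0.000175), *Tns3* (2.91, 8.46e-05), *Fyn* (1.83, 0.000825) and *Bcas1* (1.49, 0.0111). *Bmp4* (1.66, adjusted p = 0.0609), *Neu4* (0.95, 0.213) and *Gpr17* (0.24, 0.439) were not called, but *Bmp4* was called with the replicate block (adjusted p = 0.0245), with median ratio scaling (0.0395), with quantile normalization (0.0232) and without Day 2 replicate 2 or either Day 3 library. The call of *Bcas1* was lost without Day 0 replicate 1, Day 0 replicate 2 or Day 2 replicate 1.

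Against Day 1, the level on Day 3 was lower for 5 genes, where 12.2% of all genes were called lower. These were *Bmp4* (log2 fold change -3.54, adjusted p = 0.0057), *Neu4* (-2.61, 0.0134), *Gpr17* (-1.61, 0.00271), *Bcas1* (-1.36, 0.0255) and *Fyn* (-1.14, 0.0135). *Enpp6*, *Itpr2* and *Tns3* had estimates of 0.02, -0.39 and 0.32 (adjusted p = 0.976, 0.331 and 0.213). *Bmp4* and *Gpr17* alone were still called without Day 1 replicate 2 and without Day 3 replicate 2, and *Bcas1* also lost its call without either Day 0 library or Day 1 replicate 1.

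The genes differed in where they ended. On Day 3 against Day 0, *Enpp6* (log2 fold change 4.06, adjusted p = 0.000132), *Tns3* (2.42, 6.91e-05) and *Itpr2* (2.0, 0.000738) were still higher, where 12% of all genes were called higher. *Gpr17* was lower (-0.79, adjusted p = 0.02), where 26.3% of all genes were called lower. The median of all genes was -0.31 in this comparison, and median ratio scaling moved it to -0.04. Relative to that median *Gpr17* fell by 0.48, and its call was lost with median ratio scaling, without Day 0 replicate 1, without Day 0 replicate 2, without Day 3 replicate 2, without the trend (adjusted p = 0.0509) and in a fit of only these days (0.0645). *Fyn* was not called (0.49, adjusted p = 0.129), but it was called higher with median ratio scaling (0.81, adjusted p = 0.0236) and without Day 3 replicate 2 (0.85, 0.0209). *Bcas1*, *Bmp4* and *Neu4* had estimates of 0.06, 0.09 and -0.34, with intervals from -0.70 to 0.82, from -1.24 to 1.42 and from -1.56 to 0.89. These intervals leave room for a change of either sign. The replicates went apart here, with *Bcas1* on Day 3 at 1.62 times its Day 0 level in replicate 1 and 0.668 times in replicate 2, *Bmp4* at 1.85 and 0.582 times and *Neu4* at 2.07 and 0.229 times, the last values resting on the few fragments given above.

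The mean of Day 1 and Day 2 was also tested against the mean of Day 0 and Day 3. This contrast can pass on a low Day 0 alone, so it is no test of a fall by Day 3. The long noncoding RNA *9630013A20Rik*, which had no fall after Day 2, passed it as well (0.87, limma adjusted p = 0.0301). For *Enpp6*, *Itpr2* and *Tns3*, Day 3 was called below neither Day 2 nor Day 1. All 8 genes were higher on the middle days, where 3.69% of all genes were called higher. The log2 difference was largest for *Bmp4* (2.60, adjusted p = 0.00792) and *Enpp6* (2.58, 0.00303), at ranks 3 and 4 of the 12208 genes. That of *Bmp4* rests in part on the few fragments of Day 0 and Day 3 given above. *Neu4* (1.78, adjusted p = 0.0244), *Itpr2* (1.70, 0.00337), *Fyn* (1.48, 0.00337), *Bcas1* (1.42, 0.00905), *Tns3* (1.29, 0.00303) and *Gpr17* (0.92, 0.00884) followed. The 4 middle libraries were all above the 4 libraries of Day 0 and Day 3 for 5 of the 8 genes, against 2.74% of all genes tested. The exceptions were *Enpp6*, *Itpr2* and *Tns3*, each with a Day 3 library above a Day 1 library. Without Day 0 replicate 1 the calls of *Gpr17*, *Bcas1* and *Neu4* were lost, that of *Bcas1* was also lost without Day 0 replicate 2, and that of *Neu4* without any library but Day 1 replicate 1 and Day 3 replicate 1.

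The lists of genes for the stages before and after give the setting of these changes. Of 8 progenitor genes, 6 fell from Day 0 to Day 1, where 7.56% of all genes did, and 7 were lower on Day 3 than on Day 0, where 26.3% were. *Pdgfra*, the PDGF receptor used to capture the cells, measured 490 and 396 FPKM on Day 0 and 78.2 and 11.2 on Day 1 (log2 fold change -3.83, adjusted p = 0.0419), whereas *Lhfpl3* had 165 and 198 on Day 0 and 231 and 275 on Day 1 (0.47, adjusted p = 0.348) and was lower on Day 3 (-0.96, adjusted p = 0.0315). Of 12 tested genes of the myelinating stage, 4 rose on Day 1 and 12 were higher on Day 3, against 5.04% and 12% of all genes. *Cldn11*, which encodes a tight junction protein of central myelin, went from 705 and 521 FPKM on Day 0 to 2960 and 2771 on Day 3. In the contrast of middle days against both ends, 1 of these 12 genes was called higher and 2 lower, against 3.69% and 4.87% of all genes, and the median was 0.02.

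Other genes used as markers of committed and newly formed cells followed only in part. Of 11 tested, 6 rose on Day 1 and 6 were higher on the middle days than at the ends, against 5.04% and 3.69% of all genes. The median on the middle days was 0.87, against 1.59 for the 8 genes and -0.04 for all genes. *Mpzl1*, which encodes a membrane protein related to myelin protein zero, measured 142 and 116 FPKM on Day 0, then 261 and 289 (Day 1), 435 and 408 (Day 2) and finally 345 and 177 (Day 3). The long noncoding RNA *9630013A20Rik* rose from 8.88 and 8.72 FPKM on Day 0 to 257 and 192 on Day 3 and had no fall after Day 2. It was nonetheless among the 6 called higher on the middle days. On Day 3 against Day 0, 7 of the 11 genes were higher and 3 lower, against 12% and 26.3% of all genes, so the lower share was near that of all genes.

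The members' own families were read next, and each result is on the log2(FPKM + 1) scale of the limma fit. Among BMP ligands, *Bmp7* went the opposite way to *Bmp4*. It measured 92.8 and 95.7 FPKM on Day 0 and 5.80 and 3.58 on Day 1 (log2 fold change -4.09, adjusted p = 0.000804), so the ligand with the higher level was *Bmp7* on Day 0 and *Bmp4* on Day 1. *Bmp1*, a protease in spite of its name, did not pass the test at that step (0.12, adjusted p = 0.747), and *Bmp2*, *Bmp3*, *Bmp5* and *Bmp6* were too low to be tested. None of the 6 BMP receptor genes tested was called on Day 1, where 5.04% of all genes were called higher and 7.56% lower. *Bmpr1a* measured 45.0 and 42.2 FPKM on Day 0 and 57.1 and 33.2 on Day 1, and *Bmpr2* measured 22.5 and 23.7 FPKM on Day 0 and 32.5 and 21.6 on Day 1.

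Of 3 tested BMP inhibitors, *Nog*, the secreted antagonist noggin, was called higher on Day 1 (1.72, adjusted p = 0.0448). Its levels were low, with 1.02 and 0 FPKM on Day 0 and 4.67 and 2.85 on Day 1, so the size of this change is imprecise. The inhibitor *Smad7* was higher on Day 3 than on Day 0 (3.28, adjusted p = 0.000132), and *Chrd*, the antagonist chordin, was lower at levels of 2.49 FPKM or less (-1.41, adjusted p = 0.0355). None of 8 BMP effectors and targets was called on Day 1, where 5.04% of all genes were called higher and 7.56% lower. The most abundant of these, the target gene *Id3*, measured 118 and 70.1 FPKM on Day 0 and 222 and 159 on Day 1 (1.04, adjusted p = 0.0748).

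*Gpr17* stood alone among its relatives. Of 9 P2Y and cysteinyl leukotriene receptor genes, 5 were at 0 in every library, and the 2 that could be tested, *P2ry1* and *P2ry12*, stayed at or below 5.04 FPKM and were not called in any comparison. *Itpr2* was likewise the receptor gene of its family with appreciable mRNA. *Itpr1* reached 1.78 FPKM at most and *Itpr3* 0.272, whereas the lowest value of *Itpr2* was 11.7 FPKM. *Neu4* had company from *Neu1*, the lysosomal sialidase, which was higher on Day 3 than on Day 0 (1.1, adjusted p = 0.0155), with 11.4 and 13.8 FPKM on Day 3 against 5.09 and 1.16 for *Neu4*. *Neu2* was at 0 and *Neu3* stayed below 1 FPKM.

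*Src*, the relative of *Fyn* that gives the family its name, fell while *Fyn* rose. It measured 35.9 and 30.1 FPKM on Day 0 and 11.8 and 11.7 on Day 1 (log2 fold change -1.41, adjusted p = 0.00684), and *Yes1* was not called (0.46, adjusted p = 0.327). Of 5 tested partners and substrates of *Fyn*, 1 was called higher on Day 1, where 5.04% of all genes were. This was *Mapt*, which encodes the microtubule protein tau (1.49, adjusted p = 0.0188), named here after its value was seen. On Day 3 against Day 0, 1 of the 5 was higher and 2 were lower, where 12% and 26.3% of all genes were. The higher gene was *Mapt* (1.31, adjusted p = 0.013). The lower genes were *Cntn1* (-1.03, adjusted p = 0.0399) and *Hnrnpa2b1* (-1.13, 0.000518), which encodes an RNA-binding protein that *Fyn* phosphorylates.

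*Enpp2*, the gene of autotaxin and the most abundant relative of *Enpp6*, rose on Day 1 (0.97, adjusted p = 0.00879) and did not come down, with 441 and 589 FPKM on Day 3. *Enpp6* was called on the middle days against the ends and none of the 5 relatives tested was. Of all genes, 3.69% were called higher and 4.87% lower in that contrast. *Tns1*, a tensin with a far lower level than *Tns3*, rose on Day 1 (1.49, adjusted p = 0.0305) and was higher on the middle days (1.03, adjusted p = 0.0425). It measured 1.37 and 0.491 FPKM on Day 0, then 3.93 and 4.63 (Day 1), 19.1 and 23.7 (Day 2) and finally 19.0 and 10.1 (Day 3). *Tenc1*, the other tensin relative tested, was not called on Day 1 (-1.35, adjusted p = 0.174) or on the middle days (-0.25, 0.767). It was lower on Day 3 than on Day 0 (-1.75, adjusted p = 0.0404), with 10.1 and 3.64 FPKM on Day 0 and 2.14 and 0.444 on Day 3.

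The similarity of time courses was described by Pearson's r of log2(FPKM + 1) over the 8 libraries, which share their days and depths, so high values arise readily and no test was made. Among the 8 genes the highest were 0.99 for *Enpp6* with *Itpr2*, 0.98 for *Enpp6* with *Tns3*, 0.97 for *Bcas1* with *Fyn* and 0.96 both for *Bmp4* with *Neu4* and for *Itpr2* with *Tns3*. The lowest was 0.01 for *Gpr17* with *Tns3*. Over 7707 genes with a mean of at least 10 FPKM on some day, the gene most like *Gpr17* was *Cep68* (0.995), and the third was *Sox8* (0.982), which encodes a transcription factor of the SoxE group. The gene most like *Bmp4* was *Gfra2* (0.974), which encodes a receptor for neurturin, and the gene most like *Neu4* was *4930444A02Rik* (0.977). For *Enpp6* it was *4732418C07Rik* (0.997), followed by *Mtap1b* (0.996), which encodes a microtubule-associated protein. For *Itpr2* it was *Peli1* (0.991), a ubiquitin ligase gene, and for *Tns3* *Spata2* (0.997). For *Bcas1* it was *Nfkbib* (0.994), an inhibitor of NF-κB, with *Tnr* (0.989), the extracellular matrix protein tenascin-R, next. For *Fyn* it was *Skil* (0.992), a regulator of SMAD proteins, and the third was *Tuba1a* (0.984), an alpha-tubulin gene.

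On GRCm38 the genes lie on 8 chromosomes, so none is a neighbour of another. *Gpr17*, on the minus strand with a single annotated transcript, overlaps *Lims2* on the plus strand. *Lims2* had means of 33.5, 43.0, 8.46 and 5.36 FPKM on the 4 days, and whether fragments were counted by strand is not given in the sources used here, and sharing of reads between them was not tested. *Bcas1* spans chr2:170346991-170427845 (minus), *Fyn* chr10:39368855-39565381 (plus), *Enpp6* chr8:46986887-47096762 (plus), *Itpr2* chr6:146108299-146502223 (minus), *Tns3* chr11:8431652-8664535 (minus), *Bmp4* chr14:46383520-46390669 (minus) and *Neu4* chr1:94020451-94028334 (plus). *Bmp4* overlaps the antisense gene *Gm15217*, which reached 1.16 FPKM in a single library and 0 in the others. GENCODE lists 13 genes that overlap the 8, on either strand. Apart from *Lims2* and *Gm15217*, the other 11, which lie at *Enpp6*, *Bcas1*, *Itpr2*, *Bmp4* and *Fyn*, matched no symbol and were not analysed here.

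RefSeq promoters on GRCm38.p6, from 250 bases before to 50 after the start, were given for 6 of the 8 genes and searched on both strands for the letters of factors that act in this lineage. The TCF/LEF core CTTTGA was found in the promoters of *Neu4* and *Fyn*, 2 of 6, against 16.0% of 32851 promoters. TCF7L2, a factor of this class, is itself a marker of newly formed cells, and the windows around both matches are shown because they are the only ones among the 6 promoters, with the core in capitals. The first is chr1:94020406-94020435 (plus strand, core 75 bases before the start) and the second chr10:39369691-39369720 (plus strand, core 96 bases before the start). The RefSeq start used for *Fyn* lies inside the GENCODE span given above, and so does this second window.
Neu4: ggtacaatcaccCTTTGAgtgcagagctgg
Fyn: cctcagcgggccCTTTGAtagggcagaaag
The E-box CANNTG was in 5 of 6 (72.3% of all promoters), and the SOX core ACAAAG (18.7% of all) and the MYRF letters CTGGCAC (5.01%) and CTGGTAC (2.24%) were in none of the 6. A match of this kind is a description of letters and not a binding site.

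The replicates differed in a way that moved with time. Of the 8 genes, 6 were higher in replicate 2 on Day 0 and 7 on Day 1, but 1 on Day 2 and 0 on Day 3. The median log2 difference of replicate 2 from replicate 1 went from 0.16 and 0.40 on Day 0 and Day 1 to -0.20 and -0.74 on Day 2 and Day 3. Over all genes tested, the share higher in replicate 2 was between 42.7% and 49.3% on each day. *Pdgfra* was lower in replicate 2 on every day. It measured 396 against 490 FPKM on Day 0, 11.2 against 78.2 (Day 1), 5.39 against 28.8 (Day 2) and 6.53 against 29.2 (Day 3). Of the astrocyte markers, 7 of 7 were higher in replicate 2 on every day, and their sum ranged from 120 to 167 FPKM in replicate 1 and from 354 to 952 in replicate 2. The part of these differences in the results was not tested, and in bulk RNA fewer cells of a stage and less RNA per cell cannot be told apart.

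**Figure D4:**
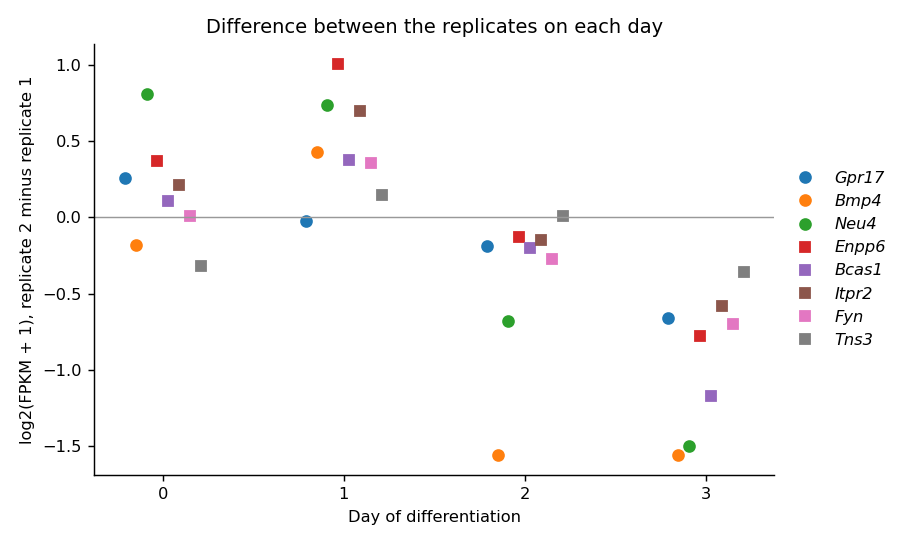
Difference of replicate 2 from replicate 1 in log2(FPKM + 1) (vertical axis) for the 8 genes on each day (horizontal axis, points spread sideways for legibility), with circles for genes highest on Day 1 and squares for genes highest on Day 2. On Day 3 all 8 points lie below 0, from -0.36 to -1.56.

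The cultures carried the markers of their label, and also the astrocyte markers given above. The sum of *Olig1*, *Olig2* and *Sox10* ranged from 911 to 1570 FPKM. In Day 3 replicate 2 these 3 genes summed to 911 FPKM and the 7 astrocyte markers to 952. The summed microglial markers reached at most 0.175 FPKM, with 4 of 5 at 0 in every library, the endothelial markers at most 0.428, with 2 of 4 at 0, and the mural markers at most 2.2, with 1 of 3 at 0. The summed neuronal markers ranged from 31.4 to 233 FPKM, with none at 0. The largest part in every library was *Tubb3*, a tubulin gene. In Day 0 replicate 2, which had the lowest sum, *Snap25* also reached 8.46 FPKM. *Tubb3* measured 60.2 and 20.8 FPKM on Day 0 and 231 and 113 on Day 3 (log2 fold change 2.15, limma adjusted p = 0.0206). *Snap25* and *Syt1*, of synaptic vesicle release, had -1.79 and -0.50 and were not called in that comparison, and the part of these genes in the results was not tested. The depth, estimated from the steps between low values, ranged from 950000 fragments on Day 3 (replicate 2) to 1520000 on Day 0 (replicate 1), which is shallow for genes at the level of *Neu4*.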

How the data were processed

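mRNA of cultured OPCs was sequenced in 8 libraries, 2 on each of 4 days. Per the study's methods, polyadenylated stranded libraries were read as paired ends of 75 nt and processed with OmicSoft ArrayStudio. The authors deposited FPKM for 23427 genes, with a column for each library. The labels name mm10 as the build. The aligner, the gene model and the use of strand are not given in the sources used here, and the labels and the methods differ on culture medium and extraction kit. No column belonged to another sample (0 left out).

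Days and replicate numbers came from the labels. The member genes and lists were chosen with earlier results of these data known. The 12208 genes that reached an FPKM of 1 in 2 or more libraries were tested on log2(FPKM + 1) with limma 3.58.1 in R 4.3.3 (trend on expression, day as a factor, all libraries, two-sided), with Benjamini-Hochberg adjustment over them and calls at an adjusted p under 0.05. The study's methods name another test that needs read counts. Named genes were the 8 members, the 3 genes most correlated with each, and from each list the most abundant genes and relatives of members. Loci came from GENCODE M21 (21431 symbols matched by name and chromosome) and promoters from RefSeq. Results that need a withheld item are not reported here. The model was run on simulated data with independent libraries, which does not cover the pairing of replicate numbers described below.

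Alternatives were a pseudocount of 0.1, no filter (15267 genes), a filter of 10 FPKM in 1 library (8202 genes), equal sums, median ratio scaling, quantile normalization, eBayes with no trend, fits restricted to the days being compared, a block on replicate number, and the omission of single libraries. Libraries of the same number deviated together from their day means (r from 0.164 to 0.285 over 12208 genes in the 6 pairs of days). The numbers were therefore taken to pair the libraries in the fit with the block. The main fit had no block, so its p-values leave this pairing out. With 2 libraries a day, p-values measure the spread between these libraries. Depth was estimated from steps between low FPKM values of 453 to 534 genes with 1 transcript, of which 59.2% to 66.5% fell on whole fragments within 0.1. Values under 3 fragments were taken as not measurable, and such estimates cover counting error only.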

Additional observations from a re-analysis of the deposited data

How the results depend on the processing

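The number of the 8 genes called on Day 1 against Day 0 (8) was 5 without a filter, 5 without the trend and 4 to 8 with a library left out. On Day 2 against Day 1 (1) it was 0 without a filter, 0 without the trend, 0 in a fit of only these days, 2 with the replicate block and 0 to 1 with a library left out. On Day 3 against Day 2 (0) it was 1 with the replicate block and 0 to 3 with a library left out. On Day 3 against Day 1 (5) it was 2 in a fit of only these days and 2 to 5 with a library left out. On the middle days against both ends (8) it was 5 to 8 with a library left out. A fit without the filter adjusts over more genes, and one without a library has fewer samples. The cause of these losses and gains was not tested. The other 96 recomputed counts stayed within 1.5 times, and the block changed no call beyond those of *Bmp4* and *Fyn* given above.

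Estimates near 0 changed sign. With a library left out, *Enpp6* on Day 3 against Day 1 ranged from -0.49 to 0.53, *Bcas1* on Day 2 against Day 1 from -0.11 to 0.27, and on Day 3 against Day 0 *Bcas1* ranged from -0.53 to 0.64, *Bmp4* from -0.69 to 0.86 and *Neu4* from -1.09 to 0.41. With quantile normalization *Bcas1* on Day 2 against Day 1 was -0.35 and *Neu4* on Day 3 against Day 0 was 0.06, and the cause was not tested. None of these estimates passed the threshold in either direction. *Bcas1* was highest on Day 1 with quantile normalization, without Day 1 replicate 1 and without Day 2 replicate 1. Over all settings and genes, 854 estimates kept direction and call, 66 lost the call, 13 gained it and 11 changed sign. With 1 residual degree of freedom a day, low depth limits *Neu4* and *Bmp4* most.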
